A study of Mus musculus with 12 samples.

Results

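A set of 6 gene entries, of the 35129 in the fragment table, were followed in hand-collected mouse cortical neurons, namely Sst, Chodl, Masp1, Adamts5, A930003A15Rik and Gm4737. Sst and Chodl were taken as known markers of somatostatin interneurons and of one of their subtypes. The other 4 were selected on measured values, because their counts in Sst-neurons of nicotine-treated mice (Sst+Nic) were far higher than in Thy1-neurons of nicotine-treated mice (Thy1+Nic), so that difference is a description here and was not tested. RNA-sequencing compared 4 groups of male mice aged 5 to 7 weeks and weighing 20 g, each carrying a subcutaneous osmotic pump for 14 days. GIN mice (FVB background), in which the Gad1 promoter drives eGFP in some of the somatostatin interneurons, gave the Sst group with saline and the Sst+Nic group with nicotine hydrogen tartrate at 48 mg/kg/d. YFPH mice (the line thy1-YFP-H, B6.Cg background), in which the Thy1 promoter drives YFP in layer V pyramidal neurons, gave the Thy1 and Thy1+Nic groups in the same way. The 2 cell types therefore came from mice of different strains, and strain and cell type cannot be told apart. Fluorescent cells were collected by hand in aliquots of 10 and amplified without strand information.

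The deposited counts were used for 10 of the 12 libraries, each from a separate mouse by the study's account of 3 mice a group: Sst replicates 1, 2 and 3, Sst+Nic replicates 2 and 3, Thy1 replicates 2 and 3, and Thy1+Nic replicates 1, 2 and 3. Totals were 2915738 to 4878326 fragments per library, and levels are given as CPM, the count scaled to a library total of 1000000. A count of 0, read as up to 3 fragments, allowed 0.615 to 1.03 CPM in one library, and this limit covers counting error only. Gene results were read only in the stretches that an earlier comparison of these data had found readable. These are the first 3, 15, 88 and 6 Mb of chromosomes 7, 8, 16 and 19. The mitochondrially encoded genes lie outside them and were taken by name for an alternative fit and a recomputed library total. All 6 entries lie in the chromosome 16 stretch. There, 64.7% of 470 mRNA entries held at least 100 fragments over the libraries, compared with 24.9% of 14863 on the chromosomes without such a stretch. Thy1 replicate 3 held 13823 Sst fragments where Thy1 replicate 2 held 4. Saline fold changes of single genes, other than Gm6278 and Rfc4, are given with and without Thy1 replicate 3. So are the nicotine fold changes of Sst that use it. Of 36 markers of other interneurons, pyramidal, endothelial, glial and mural cells, only the endothelial tight-junction gene Cldn5 lay in a readable stretch. Cldn5 was at 0 in Sst replicates 1 and 3, Sst+Nic replicate 2, both Thy1 libraries and Thy1+Nic replicate 2, and its highest level was 35.7 CPM in Sst replicate 2.

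Somatostatin is a secreted peptide that acts through inhibitory G-protein-coupled receptors, and cortical neurons that make it are GABAergic interneurons, many of which inhibit the distal dendrites of pyramidal cells. Chodl, a membrane C-type lectin, marks a rare somatostatin subtype with long-range axons. Masp1 encodes a serine protease of the lectin pathway of complement, and its alternative transcripts also encode MASP-3 and a non-catalytic protein, all counted in one entry. Adamts5 encodes a secreted metalloproteinase that cleaves aggrecan and related proteoglycans of the extracellular matrix. A930003A15Rik is a long noncoding RNA, and Gm4737 is a predicted gene with 1 exon that the file types as ncRNA and RefSeq as protein coding.

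The promoters are shown because the Sst promoter holds the cAMP response element through which CREB is known to drive the gene. Those of A930003A15Rik, which like Sst was higher in Sst-neurons, and Chodl, which was not detected there, can be read beside it. Each is the run of 250 bases before the transcript start in the RefSeq promoter table (GRCm38.p6), written 5′ to 3′ along the gene's strand, with a motif match in capitals. The Sst promoter is at chr16:23890845-23891094 on the minus strand, that of A930003A15Rik at chr16:19884275-19884524 on the minus strand, and that of Chodl at chr16:78930698-78930947 on the plus strand. The Sst and Chodl windows reach into the spans RefSeq gives for these genes, since other annotated transcripts start farther upstream.
Sst: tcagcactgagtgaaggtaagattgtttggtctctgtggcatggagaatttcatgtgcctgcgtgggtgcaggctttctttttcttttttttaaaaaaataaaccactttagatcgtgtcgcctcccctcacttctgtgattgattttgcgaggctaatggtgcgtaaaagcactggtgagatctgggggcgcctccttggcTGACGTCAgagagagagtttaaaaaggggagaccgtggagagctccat
A930003A15Rik: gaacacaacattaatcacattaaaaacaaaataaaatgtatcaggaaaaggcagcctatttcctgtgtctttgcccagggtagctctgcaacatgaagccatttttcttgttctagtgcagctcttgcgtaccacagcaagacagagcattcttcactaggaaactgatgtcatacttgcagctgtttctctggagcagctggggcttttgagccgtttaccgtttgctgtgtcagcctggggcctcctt
Chodl: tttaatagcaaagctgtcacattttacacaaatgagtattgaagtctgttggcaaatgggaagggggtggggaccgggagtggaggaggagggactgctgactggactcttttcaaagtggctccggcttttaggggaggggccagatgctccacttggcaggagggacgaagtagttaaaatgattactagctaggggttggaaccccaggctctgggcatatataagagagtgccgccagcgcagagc
The cAMP response element (TGACGTCA) begins at position -48 of the Sst promoter. It is found in 1.55% of 32851 promoters of this length, searched on both strands. Neither the A930003A15Rik nor the Chodl window holds it, and none of the 3 windows holds TATAAA (12.4% of promoters), TAATTA (4.84%) or CCAAT (33.8%). The Gm4737 promoter holds TATAAA at position -192 and TAATTA at position -53. These matches describe the letters alone.

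Sst (chr16:23889573-23891342, minus strand) was by far the most abundant of the 6 transcripts in Sst-neurons. The level was 61221, 126088 and 91130 CPM in Sst replicates 1, 2 and 3, and 53779 and 64640 CPM in Sst+Nic replicates 2 and 3. One gene thus took 5.38% to 12.6% of all fragments in a Sst-neuron library. In Thy1-neurons it was 1.15 and 3795 CPM in Thy1 replicates 2 and 3, and 49.2, 2.36 and 1.77 CPM in Thy1+Nic replicates 1, 2 and 3. The lowest Sst-neuron library was above the highest Thy1-neuron library under each treatment. Within the Thy1 group, however, the libraries were 3312-fold apart. Group means were 92813 ± 32466 (SD, n = 3) in Sst, 59209 ± 7680 (SD, n = 2) in Sst+Nic, 1898 ± 2683 (SD, n = 2) in Thy1 and 17.8 ± 27.2 CPM (SD, n = 3) in Thy1+Nic. In these bulk libraries, fewer cells of a type and less RNA per cell cannot be told apart.

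Masp1 (chr16:23451785-23521240, minus strand) was found in all Sst-neuron libraries and hardly at all in Thy1-neurons. The level was 146, 62.0 and 61.3 CPM in Sst replicates 1, 2 and 3, and 122 and 62.5 CPM in Sst+Nic replicates 2 and 3. Thy1 replicate 2 held no fragment and Thy1 replicate 3 held 12, or 3.29 CPM. Thy1+Nic replicate 1 held 1 fragment, and Thy1+Nic replicates 2 and 3 held 0. The Sst-neuron and Thy1-neuron libraries did not overlap under either treatment, but the nicotine-treated ones had picked Masp1. Under saline, 20% of the entries tested lay higher in Sst in this way. Group means were 89.6 ± 48.5 (SD, n = 3) in Sst and 92.1 ± 41.9 CPM (SD, n = 2) in Sst+Nic. Masp1 overlaps the opposite-strand gene Rtp4 by 1022 bp and Gm49514 by 798 bp, where fragments of the genes cannot be told apart.

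Adamts5 (chr16:85858157-85901125, minus strand) was even across Sst-neurons and low but present in saline Thy1-neurons. The level was 84.3, 107 and 60.5 CPM in Sst replicates 1, 2 and 3, and 74.1 and 99.6 CPM in Sst+Nic replicates 2 and 3. In Thy1 replicates 2 and 3 it was 3.44 and 19.5 CPM. Thy1+Nic replicate 2 held 9 fragments, or 2.13 CPM, and replicates 1 and 3 held 0. The Sst-neuron libraries were all above the Thy1-neuron libraries. Under nicotine this followed from how Adamts5 was picked, and under saline 20% of the entries tested lay so. Group means were 83.8 ± 23.1 (SD, n = 3) in Sst, 86.9 ± 18.1 (SD, n = 2) in Sst+Nic and 11.5 ± 11.4 CPM (SD, n = 2) in Thy1. Adamts5 overlaps Gm46558 by 1326 bp, where fragments of the genes could not be told apart without strand.

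A930003A15Rik (chr16:19876567-19884274, minus strand) was at 56.2, 105 and 56.9 CPM in Sst replicates 1, 2 and 3, and at 74.8 and 49.2 CPM in Sst+Nic replicates 2 and 3. Both Thy1 libraries and Thy1+Nic replicates 1 and 3 held 0 fragments, and Thy1+Nic replicate 2 held 15, or 3.54 CPM. Of the 5 entries detected in Sst-neurons it was the one with no fragment in Thy1 replicate 3, where 0 allows 0.824 CPM. Group means were 72.8 ± 28.2 (SD, n = 3) in Sst and 62.0 ± 18.1 CPM (SD, n = 2) in Sst+Nic. GENCODE places the opposite-strand noncoding gene Gm49598 and the miRNA gene Gm27883 across it.

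Gm4737 (chr16:46152985-46155077, minus strand) was the least steady. It was at 25.9, 12.5 and 0 CPM in Sst replicates 1, 2 and 3, and at 45.3 and 21.3 CPM in Sst+Nic replicates 2 and 3. In Thy1 replicates 2 and 3 it was 1.43 and 4.12 CPM, and in Thy1+Nic replicates 1, 2 and 3 it was 0.576, 2.36 and 1.77 CPM. The groups did not overlap under nicotine, the contrast that chose it, but they overlapped under saline, where Sst replicate 3 held no fragment.

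Chodl (chr16:78930841-78951736, plus strand) was not detected in Sst-neurons, and its place beside the Sst-enriched entries was not borne out by the counts. All 3 Sst and both Sst+Nic libraries held 0 fragments, as did both Thy1 libraries and Thy1+Nic replicates 2 and 3, and Thy1+Nic replicate 1 held 1. Over the 5 Sst-neuron libraries, 0 of 19441906 fragments allows 0.154 CPM. The nearest entries on either side with at least 100 fragments, a minimum that fixes that they are not empty, were D16Ertd472e and Ncam2. D16Ertd472e, on the upstream side, was at 0 to 30.7 CPM, with 0 in Sst replicates 2 and 3 and Thy1+Nic replicate 3. Ncam2, a neural cell adhesion gene on its other side, was at 45.4 to 227 CPM over the 10 libraries. GIN mice label only some somatostatin interneurons, and whether cells of the Chodl subtype were among those collected was not tested.

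**Figure D1:**
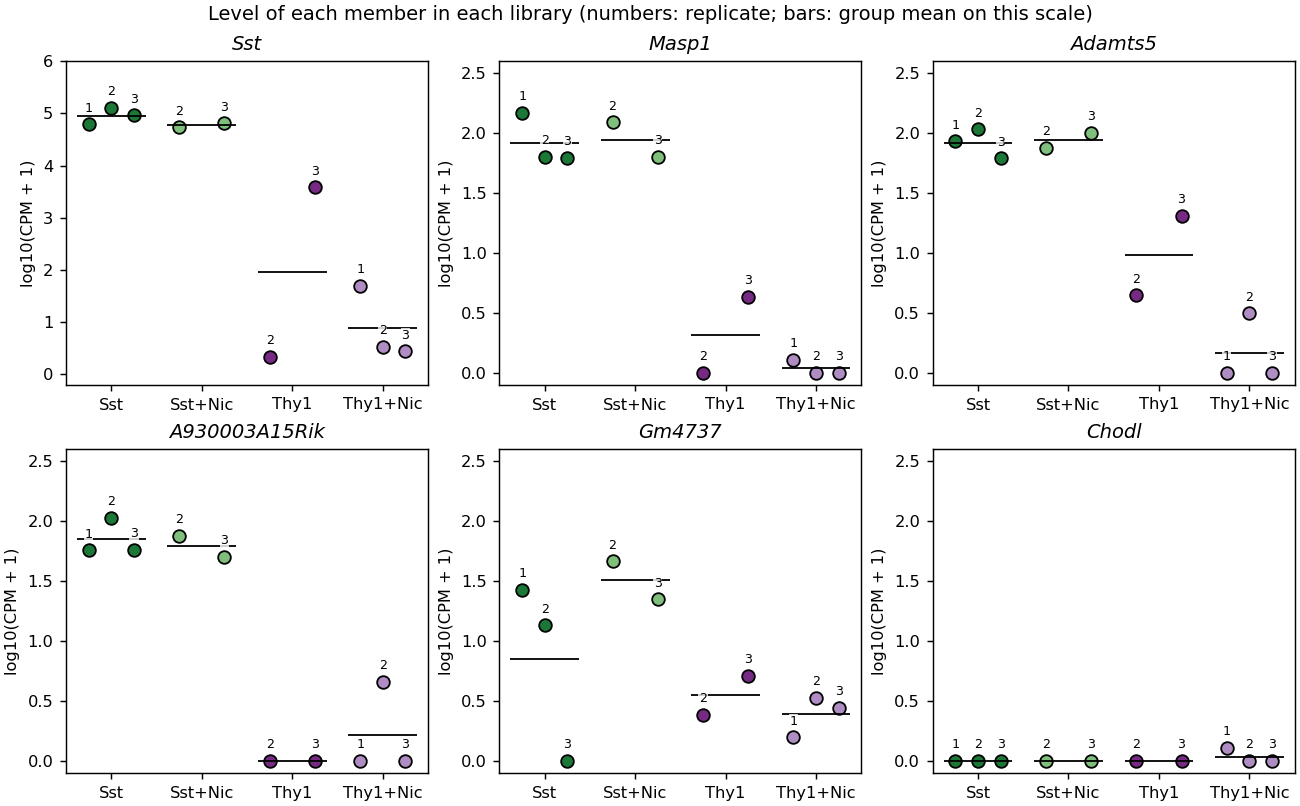
Level of each of the 6 genes in each library, as log10(CPM + 1), for the groups Sst, Sst+Nic, Thy1 and Thy1+Nic. Points are libraries with their replicate numbers, and bars are group means on the plotted scale. The Sst panel has its own axis, reaching 126088 CPM. Thy1 replicate 3 stands at 3795 CPM of Sst while the Chodl panel is at 0 apart from 1 fragment.

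Per kilobase of exon, the Sst level in the Sst group was 128728 CPM per kb. On the same scale A930003A15Rik came next at 64.7, followed by Masp1 at 9.12, Adamts5 at 7.76 and Gm4737 at 6.11 CPM per kb. The SDs over the 3 libraries were 25.0 for A930003A15Rik, 4.94 for Masp1, 2.14 for Adamts5 and 6.18 for Gm4737. Masp1, Adamts5 and Gm4737, neighbours in this order, thus lay within their spread. The highest limit that 0 fragments set for Chodl in a Sst library was 0.147 CPM per kb.

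Among the 5 Sst-neuron libraries the members did not go up and down together. Adamts5 had the smallest coefficient of variation (CV) of CPM, 22.0%, followed by A930003A15Rik at 33.1%, Sst at 37.4%, Masp1 at 44.4% and Gm4737 at 79.9%. Sst, Adamts5 and A930003A15Rik each had their highest level in Sst replicate 2, at 159%, 125% and 154% of their means over the 5 libraries. Masp1 was at 68.4% of its mean in that library. Masp1 was instead highest in Sst replicate 1 (161%) and in Sst+Nic replicate 2 (134%), where Sst was at 77.1% and 67.8%. Gm4737 reached 216% of its mean in Sst+Nic replicate 2 and was absent from Sst replicate 3.

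**Figure D2:**
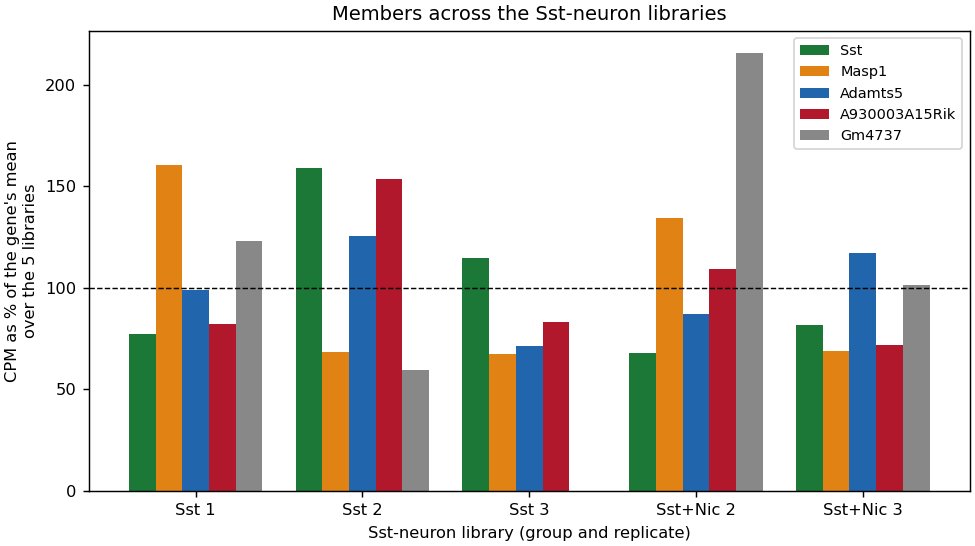
CPM of 5 genes in each Sst-neuron library as a percentage of that gene's mean over the 5 libraries, with the dashed line at 100%. Sst, Adamts5 and A930003A15Rik peak in Sst replicate 2, Masp1 in Sst replicate 1 and Gm4737 in Sst+Nic replicate 2.

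The saline contrast between Sst- and Thy1-neurons asked which of these genes also differed in libraries that had not been used to pick the 4. It was fitted with edgeR's quasi-likelihood test over 3 Sst and 2 Thy1 libraries, on the 6350 entries that passed a filter on low counts. An entry was called at a Benjamini-Hochberg adjusted p under 0.05 and a log2 fold change above 1 in size. Of all entries tested, 109 were called, or 1.72%, with 52 higher in Sst (0.819%) and 57 lower (0.898%). Chodl did not pass the filter. Of the 5 that did, A930003A15Rik alone was called, and it passed the filter through the Sst libraries alone, since both Thy1 libraries were empty. Of the 6, 4 (Sst, Masp1, Adamts5 and A930003A15Rik) had every Sst library above both Thy1 libraries, which was so for 20% of the entries tested (the reverse was so for 15.3%).

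A930003A15Rik was at least 84.7-fold higher in Sst than in Thy1, taking 3 fragments per library as the floor for the empty Thy1 libraries. The fitted log2 fold change of 11.08 (SE 1.23) depends on the prior count and is not a bound. The adjusted p of edgeR's quasi-likelihood test was 0.0156. It passed 0.05 when any Sst library was left out, at 0.0518, 0.0810 and 0.0537 without Sst replicates 1, 2 and 3. Without Thy1 replicate 2 the log2 fold change was 11.12, and without Thy1 replicate 3 it was 11.15. Each of these fits left a lone empty Thy1 library, and the spread came from the Sst libraries alone.

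Sst itself was 48.9-fold higher in Sst than in Thy1 by group means, and its log2 fold change was 5.41 (SE 2.29). With an adjusted p of 0.308 by edgeR it was not called. This value depended on which Thy1 libraries were used. Without Thy1 replicate 3 the log2 fold change was 16.23, and without Thy1 replicate 2 it was 4.35. In each of these fits the lone Thy1 library was assumed to vary like the Sst libraries. With 4 fragments in Thy1 replicate 2, Sst needed the Sst libraries to pass the filter, with or without Thy1 replicate 3. The Sst level in Thy1 replicate 3 was 4.09% of the Sst group mean, and in Thy1 replicate 2 it was 0.00123%.

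Masp1 was 54.4-fold higher in Sst by group means, with a log2 fold change of 5.47 (SE 1.29) and an adjusted p of 0.100 by edgeR. Without Thy1 replicate 3 the log2 fold change was 11.34, and the level was at least 104-fold higher, the remaining Thy1 library being empty. The Sst libraries alone then supplied the spread between libraries. With or without Thy1 replicate 3, Masp1 passed the filter through the Sst libraries. DESeq2 called it on all 5 saline libraries (adjusted p = 3.66e-06). In Thy1 replicate 3 the Masp1 level was 3.67% of its Sst mean, close to the 4.09% of Sst in the same library.

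Adamts5 was 7.31-fold higher in Sst by group means, with a log2 fold change of 2.67 (SE 0.85) and an adjusted p of 0.189 by edgeR. Without Thy1 replicate 3 the log2 fold change was 4.53 and the adjusted p 0.0972, still above 0.05. DESeq2 called it (adjusted p = 0.0187). In Thy1 replicate 3 Adamts5 was at 23.3% of its Sst mean, a larger share than that of Sst, Masp1 or A930003A15Rik in the same library.

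Gm4737 had a log2 fold change of 1.94 (SE 2.03) and an adjusted p of 0.771 by edgeR, and its libraries overlapped. Without Thy1 replicate 3 these were 2.98 and 0.753. In Thy1 replicate 3 it was at 32.2% of its Sst mean, which included the empty Sst replicate 3.

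**Figure D3:**
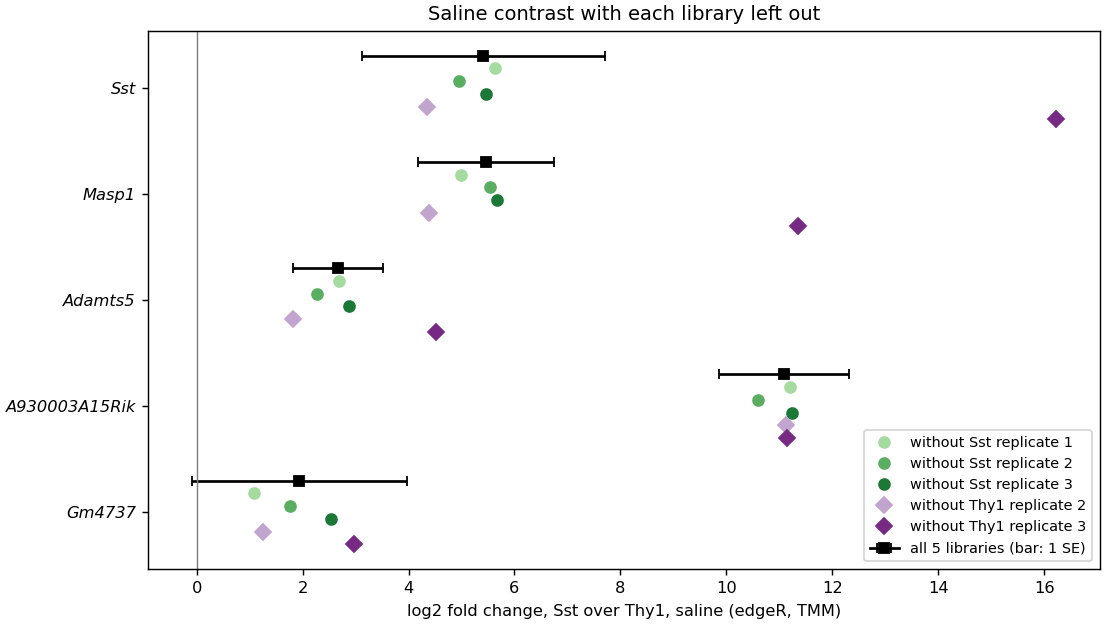
Log2 fold change of Sst over Thy1 under saline for the 5 genes that passed the filter. Squares with bars are the fit to all 5 libraries with 1 SE, circles leave out a Sst library and diamonds leave out a Thy1 library. Without Thy1 replicate 3 the value of Sst goes from 5.41 to 16.23 and that of Masp1 from 5.47 to 11.34, while A930003A15Rik stays near 11. Values where the Thy1 libraries are empty depend on the prior count.

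The nicotine-treated groups, which chose Masp1, Adamts5, A930003A15Rik and Gm4737, are given here as description. The Sst mean in Sst+Nic was 1202-fold that of the highest Thy1+Nic library, replicate 1, and 28667-fold the mean of the other 2. For Adamts5 and A930003A15Rik the only Thy1+Nic library with fragments was replicate 2. The Sst+Nic mean was 40.8-fold that library for Adamts5 and 17.5-fold for A930003A15Rik. Against the 2 empty libraries, at 3 fragments each, they were at least 98.3-fold and 70.1-fold higher. Gm4737 was 14.1-fold higher than in its highest Thy1+Nic library. Masp1 held a single fragment over the 3 Thy1+Nic libraries, against 660 in the 2 Sst+Nic libraries. The closest pair was that of Gm4737, with 21.3 CPM in the lowest Sst+Nic library and 2.36 CPM in the highest Thy1+Nic library.

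Whether nicotine changed Sst within each cell type was tested with the same edgeR fit, in contrasts that share the saline libraries with the one above. In Sst-neurons 0 of 6689 entries (0%) were called, while 280 (4.19%) had an unadjusted p under 0.05, and DESeq2 called 53. The Sst level had a log2 fold change of -0.90 (SE 0.41) in Sst+Nic over Sst, with an adjusted p of 1.000 by edgeR. The lowest Sst library, at 61221 CPM, was below the highest Sst+Nic library, at 64640 CPM, so the groups overlapped, whereas 16% of the entries lay without overlap higher in Sst+Nic and 4.78% lower. Chodl, at 0 in these 5 libraries, could not be tested.

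The 4 picked genes were not tested for nicotine because the Sst+Nic and Thy1+Nic libraries had chosen them. The log2 fold change in Sst-neurons was -0.52 for A930003A15Rik and 1.18 for Gm4737. For Masp1 and Adamts5 the sign depended on the scaling, with fitted log2 fold changes of -0.16 and -0.17 after TMM but ratios of mean CPM of 1.03 and 1.04. For each of the 4 the Sst and Sst+Nic libraries overlapped.

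In Thy1-neurons 0 of 6048 entries (0%) were called by edgeR, with 264 (4.37%) at an unadjusted p under 0.05 and 20 called by DESeq2. Sst had a log2 fold change of -6.69 (SE 2.34) in Thy1+Nic over Thy1, with an adjusted p of 1.000 by edgeR. This too rested on Thy1 replicate 3, without which the value was 4.15, in the other direction (adjusted p = 0.914). Adamts5 was lower in each Thy1+Nic library than in both Thy1 libraries, at no more than 2.13 CPM against at least 3.44 CPM, and 13.7% of all entries lay so (7.18% lay higher without overlap). Low values in Thy1+Nic were part of what picked Adamts5, so nothing is read from this. The difference between the nicotine effects on Sst, taken as Sst-neurons minus Thy1-neurons, was 5.79 on the log2 scale (SE 2.32, adjusted p = 0.672 over 8242 entries, edgeR). Both Thy1 libraries decided it. The difference was -5.04 without Thy1 replicate 3 (adjusted p = 0.496, edgeR), in the other direction, and 6.82 without Thy1 replicate 2 (adjusted p = 0.00268, edgeR), when it was called. The 1 Thy1 library left in each of these fits was assumed to vary like the other groups, and in the second it was the library with 13823 Sst fragments.

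Sst and Masp1 lie on the same part of chromosome 16, with 368 kb between the genes, and the entries around them went in both directions. Rtp4, an interferon-induced receptor chaperone gene that overlaps the 5′ part of Masp1 on the other strand, was at 23.6, 51.8 and 170 CPM in Sst replicates 1, 2 and 3. In Thy1 replicates 2 and 3 it was at 0.573 and 0 CPM. Its highest library, Sst replicate 3, was the lowest of Masp1. The log2 fold change of Rtp4 under saline was 7.90 (SE 1.48), with an adjusted p of 0.0572 by edgeR. Rtp4 passed the filter through the Sst libraries alone. Without Thy1 replicate 3 its log2 fold change was 7.01, a lone Thy1 library being left.

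Rtp1 and Rtp2, of the same chaperone family and on either side of Sst, held 0 fragments in all 10 libraries. Bcl6, a transcriptional repressor gene whose lower coordinate is 75.5 kb above that of Sst, went the other way. It was at 8.70, 5.87 and 5.13 CPM in Sst replicates 1, 2 and 3 and at 175 and 103 CPM in Thy1 replicates 2 and 3. Bcl6 was called lower in Sst (log2 fold change -4.56, SE 0.46, adjusted p = 0.00883, edgeR). Without Thy1 replicate 3, which left a lone Thy1 library, its log2 fold change was -4.84.

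**Figure D4:**
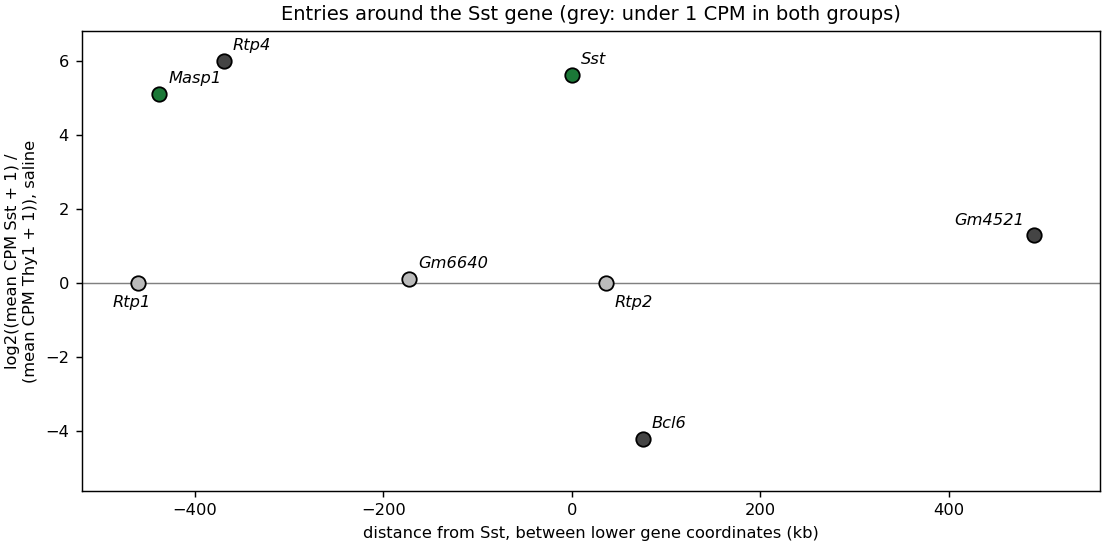
Entries within 500 kb of Sst by the distance in kb between lower gene coordinates, with log2 of the ratio of saline group mean CPM, 1 CPM added to each. Green points are Sst and Masp1, and light grey points were under 1 CPM in both groups. Sst, Masp1 and Rtp4 lie far above 0 and Bcl6 far below, with Rtp1 and Rtp2 at 0 fragments.

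Within 500 kb of a member, 21 other entries held at least 100 fragments. Under saline 7 of them lay higher in every Sst library than in both Thy1 libraries, 5 lay lower in every Sst library and 9 overlapped. Of all entries tested, 20% lay higher in this way and 15.3% lower. Of the 20 neighbours tested, 0 were called higher and 2 lower by edgeR, against 0.819% and 0.898% of all entries. The 7 were Rtp4, Eif4a2 and Rfc4 near Masp1, Gm2541 and Gm6278 near Adamts5, Abhd10 near Gm4737 and Parl near A930003A15Rik. Of these, Gm6278 was at 54.9, 70.1 and 67.2 CPM in Sst replicates 1, 2 and 3 and at 21.2 and 21.7 CPM in Thy1 replicates 2 and 3 (log2 fold change 1.42, SE 0.48, adjusted p = 0.209, edgeR). Rfc4, a subunit of the DNA clamp loader, was at 80.1, 92.3 and 97.4 CPM against 37.0 and 26.6 CPM in the same libraries (log2 fold change 1.35, SE 0.42, adjusted p = 0.182, edgeR). Adamts1, a related proteoglycanase gene that lies 55.0 kb from Adamts5, was at 41.5, 56.4 and 16.2 CPM in Sst replicates 1, 2 and 3. In Thy1 replicates 2 and 3 it was at 33.2 and 7.41 CPM, overlapping the Sst group (log2 fold change 0.81, SE 0.87, adjusted p = 0.780, edgeR). Plcxd2, a phospholipase C domain gene near Gm4737, was called lower in Sst (log2 fold change -2.40, SE 0.22, adjusted p = 0.00883, edgeR). Its log2 fold change was also -2.40 without Thy1 replicate 3, when the Sst libraries alone supplied the spread. Of the 17 entries within 500 kb of A930003A15Rik, 9 held a fragment and 7 held at least 100.

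Of 64 genes in 4 lists (the somatostatin pathway, Sst and Chodl interneurons, the lectin complement pathway, and ADAMTS proteoglycanases with their substrates), 6 lay in the readable stretches. These were Sst, Chodl, Grik1, Masp1, Adamts1 and Adamts5, of which Chodl did not pass the filter. Under saline 0 of the 5 tested were called in either direction by edgeR, against 1.72% of all entries. Of these 5, Masp1, Adamts5 and Grik1 had an unadjusted p under 0.05, as did 16.3% of all entries, and DESeq2 called Masp1 and Adamts5 as given above. Receptors of somatostatin, its processing enzymes and the other lectin pathway genes were therefore not analysed here. Grik1, which encodes a kainate receptor subunit, was at 45.7, 58.7 and 121 CPM in Sst replicates 1, 2 and 3 and at 125 and 81.4 CPM in Sst+Nic replicates 2 and 3. In Thy1 replicates 2 and 3 it was at 0 and 7.41 CPM, and in Thy1+Nic replicates 1, 2 and 3 at 10.4, 0 and 6.48 CPM. Its Sst-neuron libraries were all above its Thy1-neuron libraries (saline log2 fold change 4.10, SE 1.43, adjusted p = 0.219, edgeR). Grik1 passed the filter through the Sst libraries. Without Thy1 replicate 3 its log2 fold change was 11.16, the remaining Thy1 library being empty and the spread coming from the Sst libraries alone. The log2 fold change of Adamts1 was then 0.14.

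The pattern of 3 other entries was most like that of Sst among 391 candidates of at least 10 CPM in the readable stretches, by Pearson r of log2(CPM + 1) over the 10 libraries. These 3 were Dlgap2 (r = 0.94), which encodes a postsynaptic scaffold protein, Grik1 (r = 0.91) and Ankrd10 (r = 0.90), which encodes an ankyrin repeat protein. On the same measure the members were at 0.95 for Masp1, 0.93 for Adamts5, 0.84 for A930003A15Rik and 0.57 for Gm4737. The nicotine-treated libraries among the 10 had picked these 4, so part of their likeness to Sst was fixed by that choice. These values are descriptions, since the 10 libraries fall into the 2 cell types and share their library totals. Dlgap2 differed far less in level than the members, with group means of 238 CPM in Sst and 135 CPM in Thy1.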

How the data were processed

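Fragments were counted in cortical neurons picked by hand from GIN and YFPH mice after nicotine or saline. Per the submitters' processing notes, the authors used TopHat, HTSeq and build GRCm38, and they deposited whole fragment counts per gene entry without normalization. Columns were found for 10 of 12 samples, and Sst+Nic replicate 1 and Thy1 replicate 1 were not analysed here. The table was fitted whole (35129 entries, 16468 with a fragment). Positions came from RefSeq GRCm38.p6 by symbol.

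Each contrast used the libraries of its 2 groups in edgeR 4.0.16 (R 4.3.3) with TMM, filterByExpr (minimum count 10) and the quasi-likelihood test, with Benjamini-Hochberg adjustment over all entries tested. The SE of a log2 fold change is its size over the square root of F. DESeq2 1.42.0 was run as an alternative, without the low-count filter. Other alternatives were RLE factors, totals without TMM, no filter, one fit to all libraries, a replicate block, leaving out the mitochondrially encoded genes and leaving out each library. Fits on readable stretches alone, without the Sst entry, and with libraries left out for the interaction and for named entries that are not members were chosen after seeing the data. Levels used Python 3.11.15, numpy 2.4.6 and pandas 2.3.3. The fits were tested on simulated data.

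The named genes were the 6 members, entries of fixed lists in readable stretches, entries within 500 kb of a member and the 3 entries most like Sst. D16Ertd472e and Ncam2 were named as flanking entries after their values were seen. The members and lists were chosen with earlier results of these data known. In the main fits, p-values measure the spread between 2 or 3 libraries a group.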

Additional observations from a re-analysis of the deposited data

How the results depend on the processing

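Counts of called entries moved with the settings more than the members' directions did. The saline count of 109 was 633 with DESeq2, 454 without a filter on low counts, 59 with the replicate block, 22 of 476 in the readable stretches alone, and between 33 and 55 with 1 library left out. The nicotine counts of 0 were 53 with DESeq2 and 8 without a filter in Sst-neurons, and 20 and 13 in Thy1-neurons. The cause was not tested. With 2 same-numbered pairs a contrast, the numbers are not known to mark paired mice (correlations of deviations -0.0125 and 0.0177 in the saline contrast). Under that block Gm4737 turned to a log2 fold change of -0.71 and the value of Sst was 9.64, and A930003A15Rik was still called (adjusted p = 0.0428).

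Sst, Masp1, Adamts5 and A930003A15Rik were higher in Sst than in Thy1 under every saline alternative run. Without a filter Sst, Masp1 and Adamts5 were called (adjusted p = 1.7e-76, 4.6e-09 and 0.0037, edgeR). The SE of Sst was then 0.28, against 2.29 in the main fit, though its Thy1 libraries were 3312-fold apart. Its p in that fit does not measure the spread between libraries. Over its alternatives the adjusted p of A930003A15Rik was 3.99e-14 to 0.0810, that of Masp1 4.55e-09 to 0.186, that of Adamts5 0.00372 to 0.454 and that of Sst 1.66e-76 to 0.447. In Sst-neurons the log2 fold change of Sst with nicotine was -1.21 to -0.51 and was called under none of 12 alternatives. In Thy1-neurons it was -7.69 to 4.15, the positive value being that without Thy1 replicate 3, and it was called without a filter (adjusted p = 7e-60, edgeR). The SE was then 0.40, against 2.34 in the main fit, so that p does not measure the spread between libraries either. This log2 fold change had no value without Thy1+Nic replicate 1, when Sst did not pass the filter. The difference between the nicotine effects on Sst was -5.04 to 8.89 with 1 library left out. Of 18 recomputed levels (9 member means above 0 in the Sst and Thy1 groups under 2 other library totals), 17 moved by less than 1 SD. With 2 or 3 libraries a group, a difference of a few fold could go uncalled.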
